A study of Mus musculus with 73 samples.

Results

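Alpha-defensins are small cationic peptides with which Paneth cells, secretory cells at the base of small intestinal crypts, kill bacteria. Each is made as a prepropeptide, cut to its active form in mouse Paneth cells by the metalloproteinase matrilysin (*Mmp7*), stored in granules and released into the crypt lumen. The genes lie in a dense cluster on mouse chromosome 8 in which many copies are nearly identical, and the number and kind of copies differ between mouse strains. Paneth cells arise from *Lgr5*+ crypt stem cells and depend on Wnt signals.

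The genes described here were *Defa5*, *Defa17*, *Defa23*, *Defa24*, *Defa26* and *Gm15284*, 6 of the 17399 genes in the table of bulk epithelium, where 18 further alpha-defensin genes were listed. They were selected on the difference between ablated and control epithelium, so that difference is described for them and not tested. Both groups of epithelium came from male Lgr5(GFP-ires-DTR/+) mice aged 4 months, in which *Lgr5*+ cells carry the diphtheria toxin receptor and GFP. The 4 DT mice received diphtheria toxin and the 4 control mice saline, and the epithelium of the proximal jejunum was taken 48 h later with EDTA. The toxin strikes every cell that expresses *Lgr5*, crypt stem cells as well as the telocytes of the villus tip, so the loss of either cannot be told apart in these samples. Mice 1 and 2 of each group formed batch a, and mice 3 and 4 formed batch b. Separately, the stroma of crypt, villus bottom, villus center and villus top had been microdissected from 5 C57BL/6 mice aged 3 months (crypt from 3 of them), and sorted single cells came from 8 C57BL/6 mice, also aged 3 months.

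Reads of these copies could be separated to very different degrees. The methods gave a cDNA read of 66 bases, so each 66-base window of a member's transcript was searched for in all transcripts of the annotation. All 6 genes lie on the plus strand of chromosome 8 (GRCm38), each with 2 exons and a coding sequence of 282 bases, and no annotated gene overlaps any of them. *Defa24* (chr8:21734494-21735471) had 85.9% of its windows to itself, *Defa26* (chr8:21618183-21618972) 78.5%, and *Gm15284*, now named *Defa30* (chr8:21134642-21135598), 66.4%. The other three were largely shared. *Defa23* (chr8:21055047-21056016) had 9.83% of its windows to itself, and 90.2% were also found in *Defa31*, which the epithelial table calls *Defa-rs7*. *Defa17* (chr8:21655780-21656735) had 8.43% to itself and shared 91.6% with *Defa3*. *Defa5* (chr8:21297439-21298375) had 0.322%, a single window, and shared 77.5% with *Defa34*, called *Gm15315* in the epithelial table. Within the last 300 bases, the windows shared with another gene were 100% for *Defa23*, 88.1% for *Defa17* and 99.6% for *Defa5*. They were 13.2% for *Defa24*, 25.5% for *Defa26* and 24.3% for *Gm15284*. How a read that matched several copies was assigned is not given in the sources used here, so the values of these 3 genes are uncertain one by one and the sum over the 6 is given beside them.

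**Figure D1:**
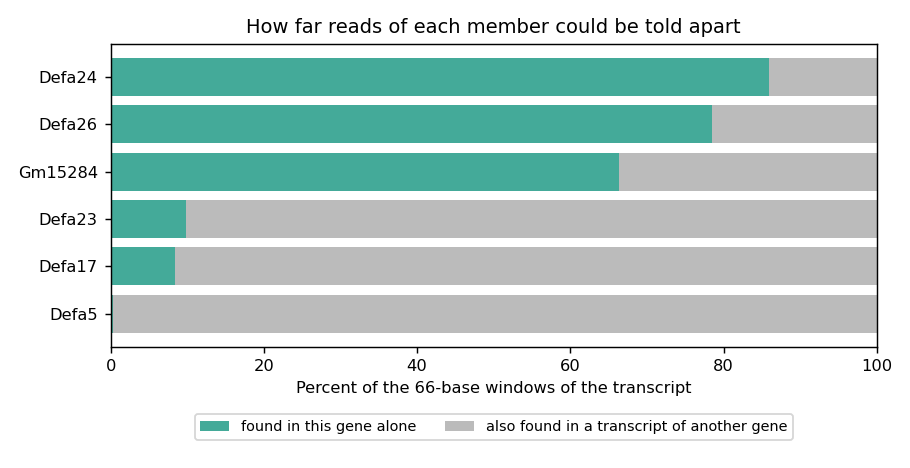
Share of the 66-base windows of each member's transcript that occurred in that gene alone (green) or also in a transcript of another gene (grey), in percent. *Defa24*, *Defa26* and *Gm15284* had 66.4% to 85.9% of their windows to themselves, and *Defa23*, *Defa17* and *Defa5* at most 9.83%.

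The last 105 bases of the coding sequences show how close the copies are. This stretch codes for the end of the peptide, with the 6 cysteines of the defensin fold, and for the stop codon. It lies within the last coding exon and is printed from the GRCm38 transcripts, 5′ to 3′ on the plus strand, with capitals for bases that differ from *Defa24*.
Defa24 (chr8:21735273-21735377): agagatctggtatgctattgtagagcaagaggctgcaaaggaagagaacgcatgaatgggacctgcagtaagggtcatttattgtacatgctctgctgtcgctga
Gm15284 (chr8:21135399-21135503): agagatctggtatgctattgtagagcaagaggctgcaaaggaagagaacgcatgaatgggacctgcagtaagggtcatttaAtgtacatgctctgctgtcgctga
Defa23 (chr8:21055817-21055921): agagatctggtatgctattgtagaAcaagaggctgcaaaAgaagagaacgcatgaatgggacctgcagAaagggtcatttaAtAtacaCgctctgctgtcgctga
Defa17 (chr8:21656537-21656641): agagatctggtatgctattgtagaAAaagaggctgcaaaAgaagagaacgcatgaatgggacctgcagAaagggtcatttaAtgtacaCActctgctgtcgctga
Defa26 (chr8:21618778-21618882): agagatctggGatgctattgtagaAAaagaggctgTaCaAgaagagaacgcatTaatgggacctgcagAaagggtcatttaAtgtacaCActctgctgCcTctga
Defa5 (chr8:21298177-21298281): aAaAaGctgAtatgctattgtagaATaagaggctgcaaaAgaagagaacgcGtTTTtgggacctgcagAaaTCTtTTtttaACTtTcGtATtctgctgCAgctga
*Gm15284* differed from *Defa24* at 1 base of this stretch, *Defa23* at 6, *Defa17* at 7, *Defa26* at 13 and *Defa5* at 26. Over the whole coding sequence *Defa24* and *Gm15284* were 98.6% identical, and their translations 97.8%. *Defa5* stood apart, with 83.3% to 85.5% of its coding bases shared with each of the other members.

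Promoters were at hand for *Defa23* and *Gm15284* alone, from RefSeq (GRCm38.p6). They are shown because both genes were among those that were lower together. The 150 bases before each RefSeq start are printed on the plus strand. Capitals mark matches on either strand to TATAAA and to CTTTGAT, a core of the sites that TCF/LEF factors of the Wnt pathway bind. The RefSeq starts differ by a few bases from the gene starts given above. The last bases of the *Gm15284* stretch therefore lie within the gene as placed above.
Defa23 (chr8:21054890-21055039): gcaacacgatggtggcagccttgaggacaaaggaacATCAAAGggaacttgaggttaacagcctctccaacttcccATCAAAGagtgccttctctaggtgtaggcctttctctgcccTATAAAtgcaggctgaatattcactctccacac
Gm15284 (chr8:21134500-21134649): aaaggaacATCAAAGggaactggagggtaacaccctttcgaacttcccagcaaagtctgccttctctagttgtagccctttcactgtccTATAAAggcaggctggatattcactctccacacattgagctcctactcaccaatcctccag
CTTTGAT occurred in the 250 bases before the start of 13 of the 16 *Defa* promoters of the table, against 3.21% of all 32851 promoters. The related CTTTGAA occurred in 0 of the 16, against 4.46% of all. TATAAA occurred in 15 of the 16, against 12.4% of all. The 16 are copies of one another, so their matches are not independent, and a match is not a bound site.

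Alpha-defensin transcripts were abundant in control epithelium and lower in every DT mouse. The 6 members together took 10846, 6315, 100975 and 61038 unique molecular identifiers (UMIs, each standing for 1 captured transcript) in controls 1 to 4. Scaled to the total UMIs of each sample (counts as ppm of the total, CPM), that was 7494, 8437, 23984 and 16412. In DT mice 1 to 4 they took 3753, 2895, 10001 and 1816 UMIs, or 3162, 1400, 2655 and 800 CPM. No DT mouse reached the lowest control. The group means were 14082 ± 7719 CPM in controls and 2004 ± 1093 CPM in DT mice (SD, n = 4 each), a ratio of 7.03 between controls and DT mice.

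The batches differed in size and not in direction. In batch a the mean of the summed members was 3.49-fold higher in controls than in DT mice, and in batch b 11.7-fold. The controls of batch b lay above those of batch a, while the DT mice of both batches overlapped. With the batch as a term, the fitted log2 ratio of DT over control was -2.73, against -1.92 in batch a alone and -3.56 in batch b alone. Fewer Paneth cells and less alpha-defensin RNA per cell cannot be told apart in bulk samples.

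**Figure D2:**
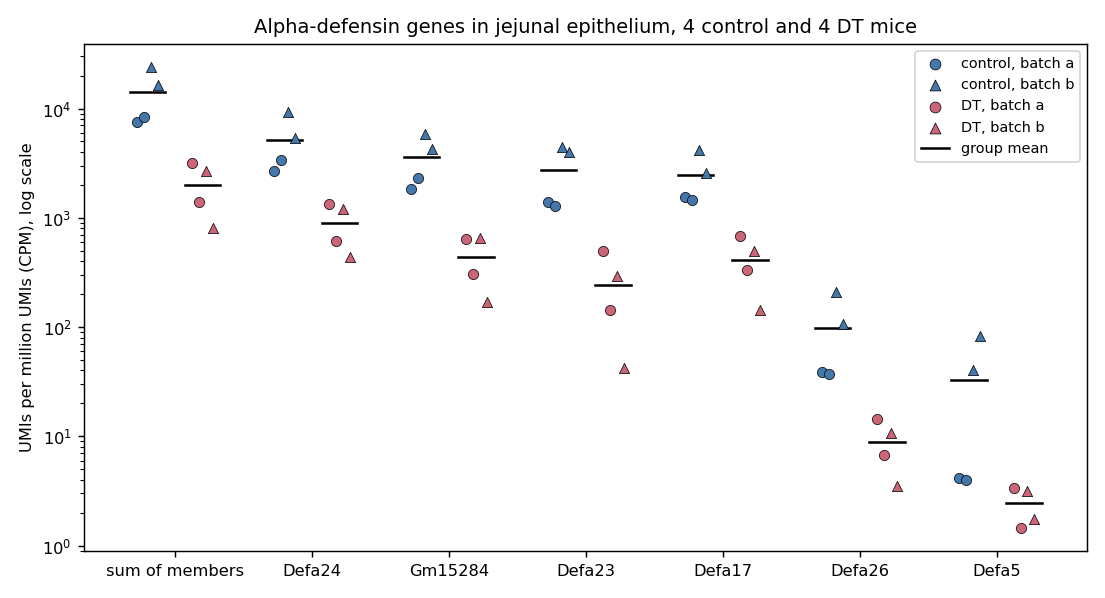
CPM of the summed members and of each member in the 8 mice, on a log scale, with a point for each mouse, the batch as its shape and a black line at the group mean. For each of the 6 genes and for their sum, the highest DT mouse lay below the lowest control.

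*Defa24*, a major crypt peptide gene and the member best told apart, was the most abundant. It stood at 2667, 3348, 9228 and 5384 CPM in controls 1 to 4 and at 1327, 609 and 1200 CPM in DT mice 1 to 3, with 441 CPM in DT mouse 4. The ratio of group means was 3.11 in batch a and 8.90 in batch b, the smallest of the 6 genes in batch b.

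*Gm15284*, the near copy of *Defa24*, stood at 1853, 2323, 5896 and 4298 CPM in controls and at 638, 304, 654 and 169 CPM in DT mice. Its ratios were 4.43 in batch a, the largest of the 6, and 12.4 in batch b. *Defa17* stood at 1545, 1455, 4206 and 2559 CPM in controls and at 688, 334, 493.3 and 142 CPM in DT mice, which is 2.94-fold and 10.6-fold by batch. In both, control 3 was highest and DT mouse 4 lowest, as for *Defa24*.

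*Defa23* held a smaller share of the members in 3 of the 4 DT mice than in any control. It stood at 1386, 1269, 4406 and 3982 CPM in controls and at 492, 145, 294 and 42.3 CPM in DT mice, with ratios of 4.17 and 25.0. Its share of the summed members was 18.5%, 15.0%, 18.4% and 24.3% in controls and 15.6%, 10.3%, 11.1% and 5.29% in DT mice. The share of *Defa24* was 32.8% to 39.7% in controls and 42.0% to 55.2% in DT mice, without overlap, whereas for *Defa23* DT mouse 1 lay above control 2. The shares of *Gm15284* (24.6% to 27.5% in controls and 20.2% to 24.6% in DT mice) and of *Defa17* (15.6% to 20.6% and 17.8% to 23.8%) overlapped between the groups. In its last 300 bases *Defa23* shared 100% of its windows with another gene, so its share is uncertain. All these shares come from the contrast that chose the members and were not tested.

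**Figure D3:**
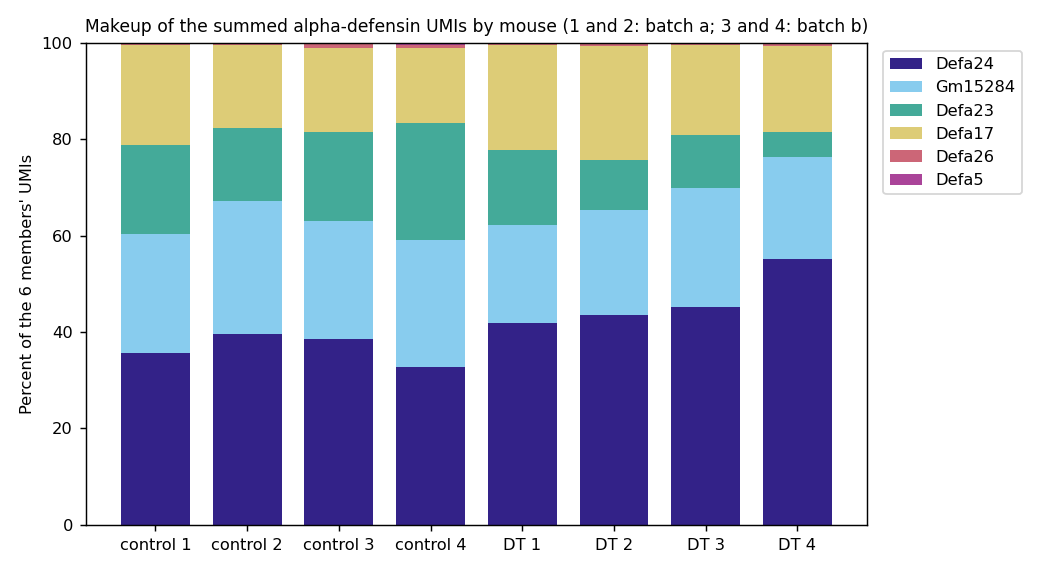
Share of each member in the UMIs of the 6 members, in percent, for each of the 8 mice. *Defa24* held at most 39.7% in controls and at least 42.0% in DT mice, and *Defa23* was lowest in DT mouse 4, at 5.29%.

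*Defa26* and *Defa5* were rare. *Defa26* had 56, 28, 875 and 396 UMIs in controls (38.7, 37.4, 208 and 106 CPM) and 17, 14, 40 and 8 UMIs in DT mice (14.3, 6.77, 10.6 and 3.52 CPM). *Defa5* had 6, 3, 169 and 307 UMIs in controls (4.15, 4.01, 40.1 and 82.5 CPM) and 4, 3, 12 and 4 UMIs in DT mice (3.37, 1.45, 3.19 and 1.76 CPM). At 3 to 6 UMIs in each mouse of batch a, a difference in *Defa5* was not detectable there at this depth, and its ratio of 24.8 rests on batch b. Of the 6 genes the groups came closest in *Defa5*, with the highest DT mouse at 3.37 CPM and the lowest control at 4.01 CPM.

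All 6 members had every DT mouse below every control, which held for 134 of the 8986 genes tested (1.49%). In the fit of all genes, edgeR's quasi-likelihood test called 30 genes lower in DT mice (0.334%) and 2 higher (0.0223%) at an adjusted p under 0.05. The members were chosen on this contrast, so nothing is read from their place in it.

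The 18 other alpha-defensin genes had lower levels in DT mice as a sum, from 2319 to 7696 CPM in controls and from 159 to 1349 CPM in DT mice, and no single one passed the test. Of the 15 that were tested, 0 were called at an adjusted p under 0.05 by edgeR, 10 had an unadjusted p under 0.05, and DESeq2 called 7, all lower. Their median log2 ratio of DT over control was -2.80, against 0.00 over all genes tested. Leaving out DT mouse 1 gave 7 calls and leaving out DT mouse 4 gave 4, all of them lower. In 7 of the 15, every DT mouse lay below every control, against the 1.49% given above.

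The 5 most abundant of them in controls behaved much like the members. *Gm7849* (now *Defa42*) stood at 670, 656, 1238 and 1661 CPM in controls and at 372, 102, 154 and 33.0 CPM in DT mice (log2 ratio -2.78, edgeR adjusted p = 0.203). *Defa-rs7*, which shares most windows with *Defa23*, stood at 529, 609, 1258 and 1115 CPM and at 210, 45.4, 76.7 and 15.4 CPM (log2 ratio -3.48, edgeR adjusted p = 0.170). *AY761184* stood at 538, 474, 781 and 1194 CPM and at 352, 101, 134 and 26.4 CPM. *Defa3*, which shares most windows with *Defa17*, stood at 169, 175, 1343 and 910 CPM and at 71.6, 27.6, 153 and 35.2 CPM, and *Gm14851* (now *Defa38*) at 343, 269, 1071 and 913 CPM and at 98.6, 44.5, 104 and 15.0 CPM. In each of the 5 the groups did not overlap, and all had an edgeR adjusted p above 0.05.

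Some rarer copies set the batches apart. Among the 15 other alpha-defensins with a control mean of at least 10 CPM, 15 were lower in DT mice in batch b and 9 in batch a. The 6 that were higher in batch a were *Gm15315*, *Defa22*, *Defa21*, *Gm15293*, *Gm15308* and *Defa2*, named after their values were seen. In all 6 this rested on DT mouse 1, which lay above the mean of the batch a controls in 6 of 6, while DT mouse 2 lay above it in 0 of 6. Their counts in batch a ran from 3 to 65 UMIs. All 15 had a lower log2 ratio in batch b than in batch a. The members shared that order in 6 of 6 genes.

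**Figure D4:**
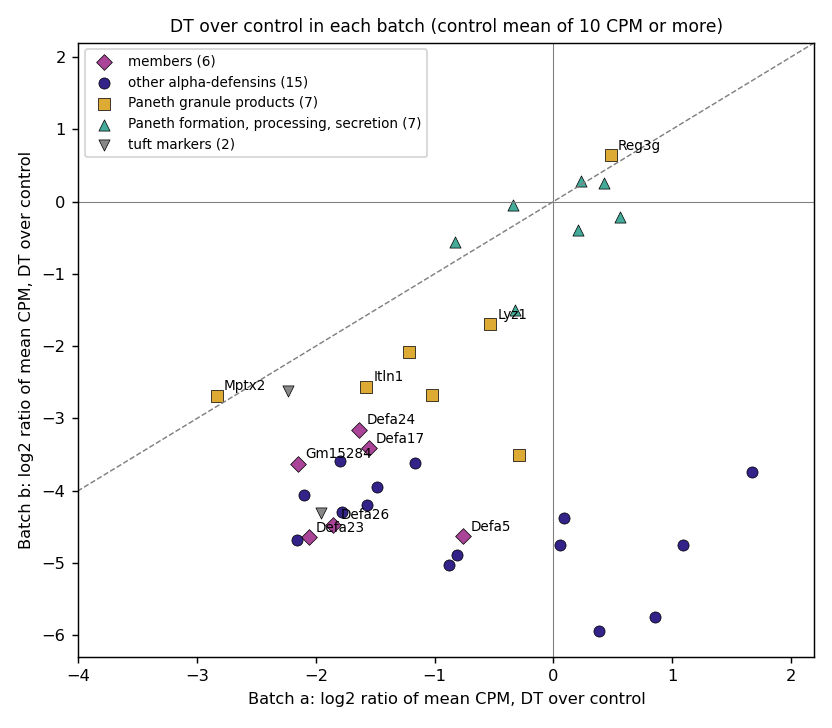
Log2 ratio of mean CPM, DT over control, in batch a (x axis) and batch b (y axis), for genes with a control mean of at least 10 CPM; the dashed line marks equal ratios. All 6 members and all 15 other alpha-defensins lay below the line, and *Reg3g* was above 0 in both batches.

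Among other Paneth cell genes, granule products had a median log2 ratio of -1.89, against 0.00 over all genes tested. Of the 8 tested, 2 were called lower and 0 higher by edgeR, and 5 had an unadjusted p under 0.05. In 4 of them, *Itln1*, *Mptx2*, *Clps* and *Pnliprp2*, every DT mouse lay below every control, and the latter pair, genes of lipid digestion, missed the threshold (edgeR adjusted p = 0.0688 and 0.0580). Of 7 genes tested for Paneth cell formation, peptide processing and secretion 0 were called, with 2 at an unadjusted p under 0.05. DESeq2 called 6 of these 15 genes, all lower. *Mptx2*, a mucosal pentraxin, was called at a log2 ratio of -2.76 (edgeR adjusted p = 0.0166), and *Itln1*, the lectin intelectin-1, at -2.12 (edgeR adjusted p = 0.0341). With the replicate number as a block in place of the batch, 1 of the 15 was called. The call of *Itln1* was lost when any of the 4 controls or DT mouse 2, 3 or 4 was left out, and that of *Mptx2* when DT mouse 2 was left out.

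The 5 most abundant Paneth genes in controls went different ways. *Itln1* stood at 710, 640, 2005 and 892 CPM in controls and at 297, 156, 334 and 156 CPM in DT mice, without overlap. *Lyz1*, which encodes the Paneth cell lysozyme, stood at 227, 224, 947 and 675 CPM in controls and at 173, 140, 364 and 137 CPM in DT mice (log2 ratio -1.18, edgeR adjusted p = 0.192), and DT mouse 3 lay above the controls of batch a. *Reg3g*, an antibacterial lectin that enterocytes also make, stood at 1442, 1229, 1000 and 2962 CPM in controls and at 1007, 2730, 269 and 5899 CPM in DT mice (edgeR adjusted p = 0.778). *Cd24a*, a surface protein of Paneth and other crypt cells, had a log2 ratio of -0.76 (edgeR adjusted p = 0.185). It ran from 171 to 290 CPM in controls and from 109 to 154 CPM in DT mice, without overlap. *Xbp1*, a factor of the secretory stress response, had a log2 ratio of 0.29 (edgeR adjusted p = 0.396). *Mmp7*, the processing enzyme, had a log2 ratio of -1.04 (edgeR adjusted p = 0.157).

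Set against other Paneth transcripts, the groups separated for some genes and overlapped for others. There were 33.1, 37.6, 25.3 and 24.3 UMIs of the members for each *Lyz1* UMI in controls 1 to 4, and 18.3, 10.0, 7.29 and 5.82 in DT mice 1 to 4, without overlap. For each *Itln1* UMI there were 10.6 to 18.4 in controls and 5.12 to 10.6 in DT mice, with DT mouse 1 just above control 1. For each *Mptx2* UMI the groups overlapped widely, at 81.0 to 367 in controls and 121 to 289 in DT mice. For each *Pnliprp2* UMI they overlapped narrowly, at 241 to 783 in controls and 181 to 250 in DT mice. There was no overlap per *Clps* UMI, at 167 to 316 in controls and 107 to 134 in DT mice. Nor was there any per *Mmp7* UMI, at 176 to 253 in controls and 19.3 to 171 in DT mice. These ratios use the contrast that chose the members and were not tested.

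The genes whose levels followed the summed members most closely over the 8 mice were named as a description. Among 8304 genes of at least 10 CPM on average, alpha-defensins left out, they were *Itln1* (Pearson r = 0.975 of log2(CPM + 1)), the pancreatic colipase gene *Clps* (0.970), *Unc13b* (0.965), *Txk* (0.949) and *Tmtc4* (0.937). All 8 mice share the division into controls and DT mice, and r carries that division with it.

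Among the markers of other cells, only the tuft list had genes called. Both tuft markers tested, *Dclk1* and *Trpm5*, were called lower (log2 ratios -3.21 and -2.61, edgeR adjusted p = 0.0288 and 0.0341), and the summed tuft list ran from 32.1 to 56.7 CPM in controls and from 4.51 to 10.95 CPM in DT mice, with *Il25* at 0 UMIs in all 8. Both tuft calls were lost with no batch term (adjusted p = 0.219 and 0.296), with the replicate block (0.0625 and 0.0888) and in batch a alone (0.566 for both), all by edgeR. The call of *Dclk1* was also lost in batch b alone and without control 1 or DT mouse 3, and that of *Trpm5* without any of the 4 controls or DT mouse 2, 3 or 4. Fibroblast and smooth muscle lists, at most 21.9 CPM in any mouse, had no gene tested. Of the goblet (6 tested), enterocyte (7), stem (5), proliferation (5), enteroendocrine (4) and immune (5) genes, 0 were called by edgeR, and 3, 2, 1, 2, 2 and 2 of them had an unadjusted p under 0.05. The summed enterocyte list ran from 34522 to 50916 CPM in controls and from 34307 to 54121 CPM in DT mice, and the summed immune list from 732 to 1220 CPM and from 137 to 796 CPM. *Lgr5*, the targeted gene, stood at 42.8, 69.5, 11.2 and 24.2 CPM in controls and at 47.2, 32.4, 6.37 and 13.2 CPM in DT mice (log2 ratio -0.75, edgeR adjusted p = 0.258), with the groups overlapping. The part of these cell types in the alpha-defensin values was not tested. Total UMIs ran from 748458 to 4210158 over the 8 mice, and the 4 mice of batch b, with 2270453 to 4210158, were the 4 deepest.

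The microdissected stroma was measured in other mice and played no part in the choice of the members. They were deposited as TPM, an abundance corrected for transcript length, and were rescaled to ppm of the sum over genes that each took under 1% of a section, so the ppm of a section exceeds its TPM. The summed members took between 0.06 and 241593 TPM in the 29 sections, with a median of 16595. They were not confined to the crypt.

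The sum stood at 20756, 29813 and 132825 ppm in the crypt of mice 1, 2 and 3. In the villus bottom it stood at 21875, 4828, 11230, 20.4 and 43007 ppm in mice 1 to 5. In the villus center it stood at 39167, 29153, 52082, 3972 and 111 ppm. In the villus top it stood at 184120, 16674, 229427, 0.08 and 934 ppm, so the highest and the lowest values of all came from the villus top. Mouse 4 had the lowest sum in the bottom and top and mouse 5 in the center, and neither had a crypt sample.

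No zone differed from the crypt beyond the spread of the mice. On the log2(ppm + 1) scale the crypt exceeded the villus bottom by 3.42 (exact two-sided permutation p = 0.268), the center by 2.51 (p = 0.357) and the top by 3.55 (p = 0.589), with SDs over mice of 1.42 in the crypt, 4.39, 3.71 and 7.31. Adjusted over the 3 exact permutation tests, p was 0.536, 0.536 and 0.589, and 3 mice against 5 cannot give a p below 0.0179. These tests, and the limma fits below, took crypt and villus values as separate mice, although the 3 crypt mice were also among the 5. Mice 4 and 5 entered the villus means alone, so these differences mix zone with mouse. In the 3 mice that had all zones, the crypt exceeded the bottom by 2.04 and the center by 0.16 on average. There it lay below the top by a log2 difference of -1.03.

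Single members also varied widely, and not all in step with the sum. In limma fits over 13138 genes, 0 of the 6 members were called between crypt and bottom, center or top at an adjusted p under 0.05, and 0 of the 6 had an unadjusted p under 0.05. Over all genes the fits called 0 (0%) in each comparison, with 186, 521 and 403 genes at an unadjusted p under 0.05. Among mice 1 to 3 alone, a choice made after the data were seen, 5 of the 6 members (all but *Defa23*) had an unadjusted p under 0.05 for crypt over bottom, at log2 differences of 1.96 to 3.01, as did 209 of 12027 genes. None of these passed the limma adjustment (adjusted p = 1 for each of the 6). *Defa24* stood at 9630, 12919 and 60798 ppm in the crypt of the 3 mice and ranged from 0 to 98299 ppm in the top. *Defa23* was listed at 0 in 8 of the 24 sections in which the sum exceeded 1000 TPM, and had its highest value, 24891 ppm, in the top of mouse 1.

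**Figure D5:**
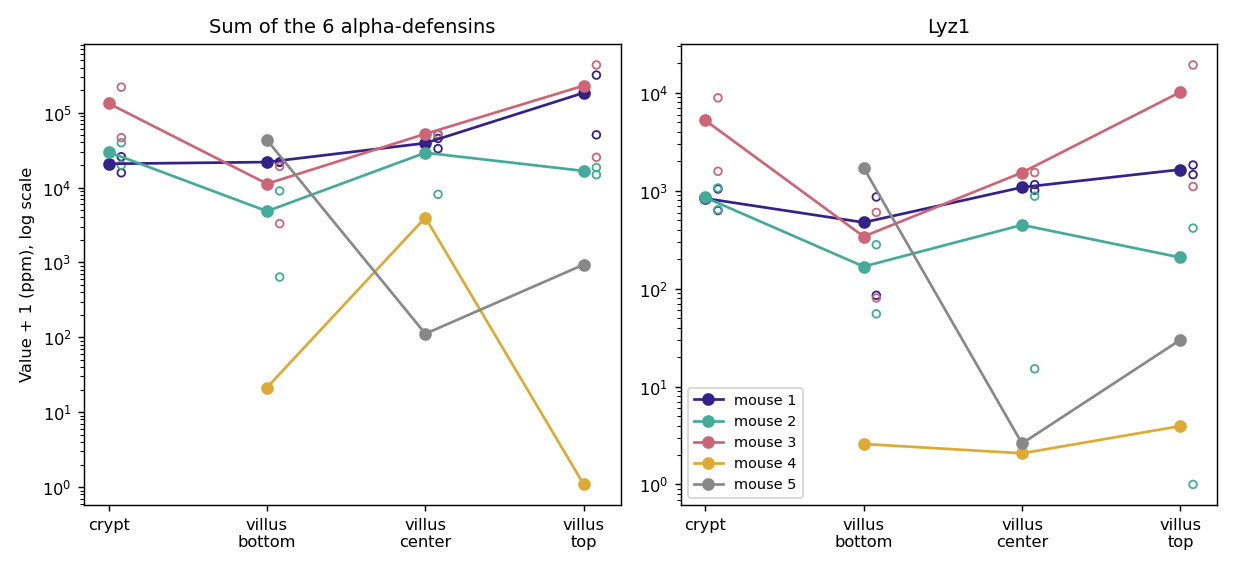
Summed members (left) and *Lyz1* (right) as ppm + 1 on a log scale in the 4 zones; filled points are means of a mouse's sections, joined by mouse, and open circles are single sections of mice 1 to 3. In the villus top the summed members ran from 0.08 ppm in mouse 4 to 229427 ppm in mouse 3.

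Sections of one mouse and zone also differed widely. In the villus top, the sections of mouse 1 held 39277 and 209137 TPM of the members, and those of mouse 3 held 21120 and 241593 TPM. In the crypt of mouse 3 the sections held 32796 and 148234 TPM. In the villus bottom of mouse 2 they held 6342 and 318 TPM.

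Other Paneth transcripts were found in the same sections. Over the 29 sections, which share mice and zones, log2(ppm + 1) of the sum followed that of *Itln1* (Pearson r = 0.953), *Lyz1* (0.767) and *Mmp7* (0.598), and not that of the summed enterocyte genes (-0.04). The summed list of Paneth granule products, which includes *Reg3g*, had an r of 0.07. In the 6 crypt sections there were 24.6 to 37.1 TPM of the members for each TPM of *Lyz1*. The section of the villus top of mouse 3 with the most alpha-defensin TPM had 22.4, and that of mouse 1 had 173. In a section of the villus top of mouse 2 with 9694 TPM of the members, *Lyz1* was listed at 0. Summed enterocyte genes ran from 3780 to 57221 ppm over mice and zones, the general epithelial list, without *Epcam* and *Krt8*, from 77.7 to 576 ppm, the fibroblast list from 26.8 to 1113 ppm and the endothelial list from 306 to 3140 ppm. Transcripts of enterocyte genes were thus present in every stromal sample. Their part in the alpha-defensin values was not tested.

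The makeup of the sum depended on the assay. *Defa5* made up 0.05% to 0.50% of the members' UMIs in control epithelium and a median of 3.02% of their TPM in the 24 sections. *Defa23* made up 15.0% to 24.3% in control epithelium and a median of 1.03% in the sections. *Defa24* and *Gm15284*, whose windows are mostly their own, were closer, at 32.8% to 39.7% against a median of 45.5%, and at 24.6% to 27.5% against a median of 21.4%. *Defa17*, whose windows are mostly shared, stood at 15.6% to 20.6% against a median of 26.7%. *Defa26* stood at 0.44% to 0.87% against a median of 0.46%. Mice, tissue, library chemistry, read length and the tools that assigned reads to genes all differ between the assays and cannot be told apart.

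In single cells the members were concentrated in a handful of wells. Of 2347 wells with 400 to 8000 UMIs and at least 250 genes, from 8 mice, 159 had a UMI of a member (6.77%, exact 95% interval 5.79% to 7.87%, counting error only), and the members took 2384 of 4479934 UMIs. In 5 wells they took over 5% of the well's UMIs, and in the 3 highest they took 806 of 2972, 473 of 1720 and 351 of 1187 UMIs. Those 3 wells, from 3 mice, also held 10, 7 and 14 *Lyz1* UMIs and 18, 25 and 39 *Itln1* UMIs, with 0 *Pdgfra* and 0 *Ptprc* UMIs. The first and second had been sorted as EpcamPdgfraDoublets and the third as PdgfraSinglets.

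By gate, the summed share did not follow the share of wells. Members took 0.109% of the UMIs of the 62 EpcamSinglets wells of 1 mouse, of which 64.5% had a member UMI (exact 95% interval 51.3% to 76.3%), at a median depth of 2041 UMIs. They took 0.148% in 557 EpcamPdgfraDoublets wells of 2 mice, of which 7.18% had one, at a median of 1403 UMIs, and 806 and 473 of the 1490 member UMIs there came from single wells. In CD45Singlets, immune cells that should lack these genes, they took 0.00634% and 6.85% of 73 wells had one, at a median of 1307 UMIs, and in 9 CD31 wells there were 0 (exact 95% upper bound 33.6% of wells). All but 1 of these CD45Singlets wells came from a mouse other than that of the EpcamSinglets. Among 37 wells of 4 mice with a *Ptprc* UMI and no *Epcam* UMI, 0 had a member UMI (exact 95% upper bound 9.49%). The EpcamSinglets did not stand alone. In PDGFRaSmall, a gate of 1 mouse, 9 of 16 wells had a member UMI (56.3%, exact 95% interval 29.9% to 80.2%). Members took 0.166% of the UMIs of PDGFRaSmall, the highest share of any gate. Of those 84 member UMIs, 61 came from a single well of 590 UMIs. In TripleNeg 2 of 19 wells had one, both among the 4 wells of 1 mouse. The 7.18% of EpcamPdgfraDoublets wells was 13.8% in the mouse of the EpcamSinglets and 5.44% in the other mouse. Median depths there were 632.5 and 1667 UMIs. All but 1 of the CD45Singlets wells came from neither of these mice, so they give no same-mouse background. Neither the 7.18% nor the 64.5% of EpcamSinglets wells is read as above background. The 195 member UMIs of EpcamSinglets lay in 40 wells, and in 0 of them did members exceed 5% of the well's UMIs. The paper subtracted the expression seen in empty wells of each plate, which was not done here. Gates with 1 or 2 mice have no test.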

How the data were processed

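Bulk epithelium of 4 DT and 4 control mice was deposited by the authors as UMI counts per gene (mcSCRBseq, zUMIs, GRCm38 with Ensembl annotation), microdissected sections as TPM (SMART-seq, kallisto and sleuth, Ensembl), and single cells as UMI counts per well (MARS-seq). Per the labels, base calls came from bcl2fastq 2.15.0.4. The members and gene lists were chosen with earlier results of these data known.

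Bulk counts were fitted with edgeR 4.0.16 (TMM, robust quasi-likelihood fit in its earlier form, batch and group as terms) over genes above 1e-05 of the UMIs in at least 2 samples. The Benjamini-Hochberg threshold was 0.05. Total counts ran from 748458 to 4210158 per mouse. Batches a and b follow the study's table of counts. Cage mates were used on a shared date within an experiment, per the study, and the spread is that between mice. TPM of sections were divided by the sum of genes under 1%, averaged over the sections of a mouse and zone, and tested on log2(ppm + 1) with limma 3.58.1 (zone mean above 5 ppm) and exact permutation. How deeply the sections were sequenced is unknown from TPM. The 352 single-cell columns of no listed sample were not used, doublets were not called, and 2 barcode files were not needed. The background of empty wells was not subtracted from the single-cell counts. Alternatives were DESeq2 1.42.0, other scalings, filters, pseudocounts and left-out mice. Fits were tested on simulated data.

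Deviations from group means of samples with the same replicate number correlated at 0.43 to 0.67, so the number carries the batch. Within batches they correlated at -0.19 in batch a and -0.06 in batch b. With so few mice, each batch gives a single value, which cannot settle whether there was a closer pairing. Named genes are the 6 members, the 5 other alpha-defensins and 5 Paneth genes with the highest mean CPM in controls, *Lgr5*, and the 5 genes closest to the sum by Pearson r. *Mptx2*, *Pnliprp2*, *Dclk1*, *Trpm5* and *Mmp7* were named after their values were seen.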

Additional observations from a re-analysis of the deposited data

Results flagged for a closer look

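In 59 groups of 4 or 5 mice (members, their sum and the named genes), 5 had a sample whose gap to its nearest neighbour was large against the range of the group, where chance gives about 1 in 20. In the epithelium, *Lyz1* in DT mouse 3 stood at 364 CPM against 137 to 173 CPM in the other DT mice, and *Cd24a* in control 2 at 290 CPM against 171 to 179 CPM in the other controls. In the microdissected villus bottom, *Defa5* in mouse 5 stood at 1295 ppm against 0 to 370 ppm in the other mice, and *Defa23* in mouse 1 at 1165 ppm against 0 to 260 ppm. In the villus top, *Defa23* in mouse 1 stood at 24891 ppm against 0 to 529 ppm in the other mice.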

How the results depend on the processing

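The summed members stayed lower in DT mice under all 17 alternatives, at log2 ratios from -3.56 (batch b alone) to -1.92 (batch a alone). Leaving out 1 mouse gave -3.15 to -2.30. Each single member also stayed lower in all 99 values that could be computed. All these fits use the mice on which the members were chosen, so the kept direction was largely set in advance and is no support. Counts of calls varied with the setting. Other alpha-defensins called lower numbered 0 in the reported fit, 16 with no filter on low counts, 7 with DESeq2, 3 in batch b alone, and 0 to 7 when 1 mouse was left out. Paneth genes called lower numbered 2 in the reported fit, 9 with no filter, 6 with DESeq2, 0 with no batch term, 0 in batch a alone, 1 in batch b alone, and 1 to 4 when 1 mouse was left out. Over all genes, 30 were called lower and 2 higher, against 19 lower with library totals, 333 and 302 with no filter, 114 and 45 with DESeq2, 1 and 0 with no batch term, 0 and 0 in batch a alone, 5 and 0 in batch b alone, and 3 to 38 lower and 0 to 6 higher when 1 mouse was left out. With the replicate number as a block in place of the batch, 3 genes were called lower and 0 higher, with 1 Paneth gene and 0 other alpha-defensins, and the summed members stood at -2.91. Fits with fewer samples or more terms leave fewer degrees of freedom; the cause of the other shifts was not tested. The quasi-likelihood default of edgeR 4, added after the data were seen, gave 22 lower and 3 higher.

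In the stroma no alternative called a member at an adjusted p under 0.05. With mouse as a block, and with mice 1 to 3 alone (added after the data were seen), the crypt lay below the top for the sum by -1.03. With the mouse block, crypt minus center was -0.30 for *Defa23* and -0.66 for *Defa24*. With mice 1 to 3 alone, crypt minus center was -1.95 for *Defa23*, and crypt minus top was -0.30 for *Defa5*, -1.17 for *Defa17*, -0.85 for *Defa24*, -0.00999 for *Defa26* and -0.79 for *Gm15284*. Over all wells in place of filtered wells, members took 0.316% of UMIs in EpcamSinglets, 0.332% in EpcamPdgfraDoublets, 0.0405% in PdgfraSinglets and 0.421% in PDGFRaSmall.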
